A study of Homo sapiens with 2 samples.

Results

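SKAP1, RNF43, HSF5, HSD17B2, SORCS3 and DMBT1 are 6 genes on chromosomes 17, 16 and 10 that lie in stretches where H3K27me3 ChIP-seq of HCT116 cells reached high levels. The genes were chosen by those levels, the read counts per bin of both libraries, so the levels below are a description and carry no test. The reference gene table holds 59778 gene names, which were not ranked here. Their hg19 spans, taken to the nearest kb from the list that defines the set, cover 1202 bins of 1 kb, while 2736177 bins of chromosomes 1 to 22 and X held a read in at least 1 library. HCT116 is an established human colorectal carcinoma line. The series had 1 group with 2 libraries, which the labels call biological replicates, made from formaldehyde-crosslinked cells, for which no treatment is named, with an antibody to H3K27me3; neither an input library nor a second condition was used here. The labelled cell line could not be checked against RNA markers, since only a histone mark was measured.

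H3K27me3 is the trimethylation of lysine 27 on histone H3, placed by Polycomb repressive complex 2 and found over genes that a cell type keeps silent. It often covers CpG-rich promoters of developmental genes, and in cultured cancer lines it can also spread into broad blanket-like stretches over genes and the space between them. The 6 genes have unrelated roles. RNF43 is a transmembrane ubiquitin ligase that removes Frizzled receptors from the cell surface and so restrains Wnt signalling, and it is a Wnt target in the intestine. SKAP1 is an adaptor of T-cell receptor and integrin signalling, HSF5 is a member of the heat shock factor family that acts in spermatogenesis in mouse, and HSD17B2 is a dehydrogenase that oxidises oestradiol to oestrone. SORCS3 is a sorting receptor of neurons, and DMBT1 is a secreted scavenger-receptor glycoprotein of mucosal surfaces.

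The promoter sequences show how differently these genes begin. The RefSeq promoter table (build GRCh38.p14) matched 4 of the 6 genes, SKAP1 and HSD17B2 not being matched. Each sequence runs from 250 bases before to 50 bases after the outermost listed start, on the strand of the gene, and capitals mark every CG dinucleotide, the site of CpG methylation and of CpG islands. The coordinates beside the sequences are on GRCh38.p14 and are not those of the hg19 bins.
HSF5, chr17:58488359-58488658, minus strand: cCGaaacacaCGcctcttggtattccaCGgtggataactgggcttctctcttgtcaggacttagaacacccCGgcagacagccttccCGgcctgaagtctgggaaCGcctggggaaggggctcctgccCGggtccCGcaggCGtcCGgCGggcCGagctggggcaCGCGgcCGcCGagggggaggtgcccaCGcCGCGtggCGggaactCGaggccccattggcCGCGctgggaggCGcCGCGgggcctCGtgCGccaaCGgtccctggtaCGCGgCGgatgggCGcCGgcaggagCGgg
SORCS3, chr10:104641040-104641339, plus strand: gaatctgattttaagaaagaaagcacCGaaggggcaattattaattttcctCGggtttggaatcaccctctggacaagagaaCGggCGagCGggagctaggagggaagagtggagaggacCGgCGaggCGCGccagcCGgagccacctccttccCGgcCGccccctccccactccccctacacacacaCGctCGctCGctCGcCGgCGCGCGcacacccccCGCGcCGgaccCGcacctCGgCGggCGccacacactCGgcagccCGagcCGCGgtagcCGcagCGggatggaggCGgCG
RNF43, chr17:58417485-58417784, minus strand: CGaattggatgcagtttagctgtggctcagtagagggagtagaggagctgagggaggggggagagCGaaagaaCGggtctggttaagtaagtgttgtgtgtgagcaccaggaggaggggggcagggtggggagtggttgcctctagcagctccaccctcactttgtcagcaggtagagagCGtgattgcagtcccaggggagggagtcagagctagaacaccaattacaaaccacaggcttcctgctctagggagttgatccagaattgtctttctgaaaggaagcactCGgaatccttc
DMBT1, chr10:122560504-122560803, plus strand: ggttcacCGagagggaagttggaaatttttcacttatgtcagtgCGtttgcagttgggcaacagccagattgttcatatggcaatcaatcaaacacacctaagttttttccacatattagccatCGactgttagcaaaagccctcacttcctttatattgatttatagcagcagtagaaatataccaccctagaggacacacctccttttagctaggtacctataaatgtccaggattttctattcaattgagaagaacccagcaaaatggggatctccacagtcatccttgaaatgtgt

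HSF5 and SORCS3 have CpG-dense starts, with 35 CG dinucleotides each, and 14.1% of the 35116 promoters in the table hold at least as many. RNF43 has 5 and DMBT1 has 3, and 70.4% and 81.8% of promoters hold at least as many. The median promoter of the table has 14. The table held 2 entries for RNF43, of which the outermost is counted here, and 1 for each of HSF5, SORCS3 and DMBT1. The levels at these starts are given further on.

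Replicate 1 held 53187504 reads and replicate 2 held 97031399. A level is the read count of a 1 kb bin over the library's mean of listed autosomal bins, 22.002 reads in replicate 1 and 37.5 reads in replicate 2, with unlisted bins at 0. At 2-fold, the counting error of a single bin was 15.1% and 11.54% of its level if reads were independent. Reads split between the libraries with 2.51 times the variance of single reads. The variance behind the intervals for gene means was multiplied by this value. These intervals cover counting error only. Scaling matters for the spread between libraries: with fewer reads, replicate 1 listed fewer bins (2470347 against 2652211 in replicate 2), which raises its mean of listed bins. On the scale of all autosomal bins the level in replicate 1 over that in replicate 2 lay between 0.998 (SORCS3) and 1.03 (HSF5). The SDs below are on the scale of listed bins, where replicate 2 stood above replicate 1 for each of the 6 genes.

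The mark was dense over the 6 genes as a set. Of their 1202 bins, 966 (80.4%) were at least 2-fold in both libraries with a one-sided Poisson test against the library mean passing in each (Benjamini-Hochberg adjusted over all bins), where 12.2% of all bins were. At 5-fold or more stood 656 bins (54.6%), where 2.12% of all bins did. The genes were selected for this, so nothing follows from the contrast with the background. The median bin of the 6 genes stood at 5.68 in replicate 1 and 6.02 in replicate 2, and the median of the other autosomal bins with a read at 0.364 and 0.373. With 0.0462% of the autosomal bins with a read, the genes took 0.294% (replicate 1) and 0.293% (replicate 2) of all autosomal reads.

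**Figure D1:**
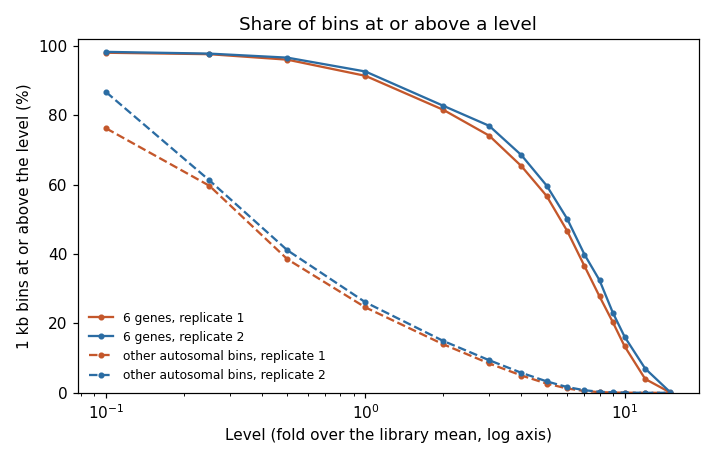
Share of 1 kb bins (y axis, percent) at or above a given level (x axis, fold over the library mean, log axis) for the 6 genes (solid lines) and the other autosomal bins with a read (dashed lines), in replicate 1 and replicate 2. At 5-fold the solid lines stand at 56.7% and 59.7%, and the dashed lines at 2.67% and 3.31%.

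By their mean level over the gene, with no correction for copy number, SKAP1, HSD17B2 and RNF43 stood above HSF5, SORCS3 and DMBT1 in both libraries. SKAP1 had 8.71 in replicate 1 (95% interval 8.60 to 8.83) and 9.25 in replicate 2 (9.16 to 9.34), or 8.98 ± 0.378 (SD, n = 2). HSD17B2 had 8.39 (8.15 to 8.63) and 8.89 (8.70 to 9.08), and RNF43 had 8.11 (7.88 to 8.35) and 8.68 (8.49 to 8.86). These 3 genes kept the same order within each library, with gaps between neighbours of 0.213 to 0.356. Their ranges over the 2 libraries overlapped on this scale. On the scale of all autosomal bins they did not, with 10.64 and 10.55 at SKAP1, 10.25 and 10.15 at HSD17B2, and 9.907 and 9.905 at RNF43. HSF5 came next with 5.65 (5.46 to 5.84) and 5.89 (5.74 to 6.03), below RNF43 in both libraries by at least 2.46. SORCS3 had 4.13 (4.08 to 4.19) and 4.43 (4.39 to 4.47), below HSF5 by at least 1.46. DMBT1 had 3.92 (3.77 to 4.06) and 4.16 (4.05 to 4.27), and its range over the libraries overlapped that of SORCS3 on this scale. On the scale of all bins the ranges did not overlap, with 4.78 and 4.75 at DMBT1 and 5.05 and 5.06 at SORCS3. This order counts unlisted bins at 0. With unlisted bins left out, on the scale of listed bins, DMBT1 had 4.98 and 5.37, above SORCS3 at 4.13 and 4.44.

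Whether these are the highest genes of the genome could not be ranked, since gene positions on hg19 beyond the 6 spans were not used here. As a description, each gene was set beside autosomal windows of its own length laid end to end, leaving out those that overlap it and those with under 50% of bins listed. None of 8939 windows of 297 kb reached the level of SKAP1 in either library. In both libraries 7 of 42057 windows of 63 kb reached HSD17B2, 8 of 41401 windows of 64 kb reached RNF43, and 128 of 38381 windows of 69 kb reached HSF5. For SORCS3 it was 15 of 4253 windows of 625 kb, and for DMBT1 963 of 31552 windows of 84 kb (3.05%). The genes were chosen by these levels, so the counts describe that choice and support nothing further. They rest on levels without correction for copy number.

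Local copy number, for which there is no input, was approximated by the 10th percentile of the level over completely listed 5 kb bins within 5 Mb of each gene, relative to that of all autosomes. This ratio was above 1 for every gene in both libraries. It was 1.08 and 1.05 at SKAP1 and 1.08 and 1.12 at RNF43 and HSF5, whose windows largely coincide. At SORCS3 it was 1.13 in replicate 1 and 1.23 in replicate 2. It was highest at HSD17B2 (1.42 and 1.51) and DMBT1 (1.46 and 1.49). Divided by it, SKAP1 stood at 8.04 and 8.82, RNF43 at 7.49 and 7.73, HSD17B2 at 5.92 and 5.88, HSF5 at 5.21 and 5.25, SORCS3 at 3.67 and 3.60, and DMBT1 at 2.69 and 2.80. HSD17B2 thus passed below RNF43 in both libraries, with HSF5 as its nearest neighbour. SKAP1, RNF43 and HSD17B2 still stood above HSF5, SORCS3 and DMBT1 in both libraries, but the gap between these groups was narrower on this scale. DMBT1 was below SORCS3 in both libraries with no overlap, with its unlisted bins (18 in replicate 1, 19 in replicate 2) counted as empty. Before division, leaving unlisted bins out put DMBT1 above SORCS3, at 4.98 and 5.37 against 4.13 and 4.44. Whether DMBT1 stays below SORCS3 after division with unlisted bins left out was not tested. The percentile can itself be raised by the mark in the window, so copy number and mark cannot be told apart here.

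**Figure D2:**
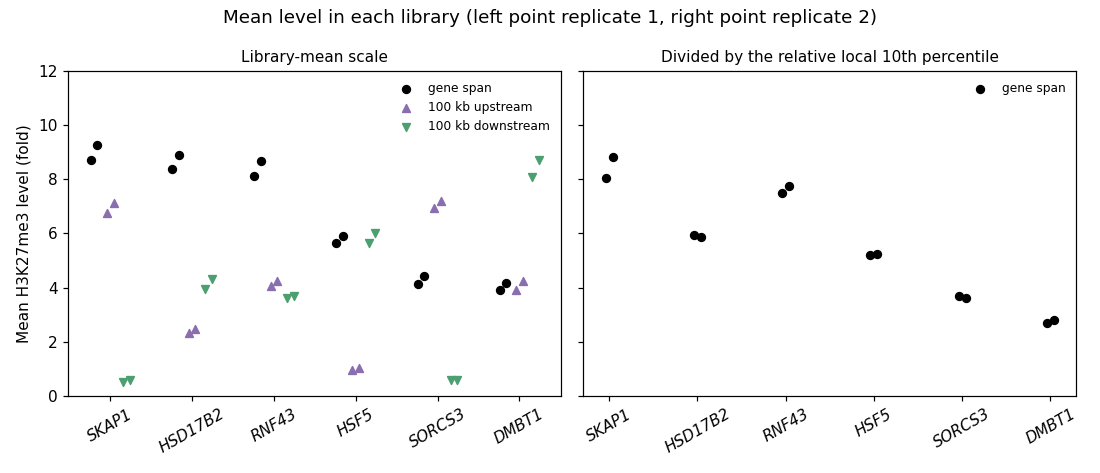
Mean H3K27me3 level (y axis, fold over the library mean) of each gene in replicate 1 (left point of each pair) and replicate 2 (right point), with the 100 kb upstream and downstream (left panel), and of the gene after division by the relative local 10th percentile (right panel). SKAP1, HSD17B2 and RNF43 lie between 8.11 and 9.25 on the left; on the right HSD17B2 drops to 5.92 and 5.88.

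SKAP1 was covered from end to end of the span used here. In both libraries 290 of its 297 bins (97.6%) were at least 2-fold, 261 were at least 5-fold and no bin was unlisted. Cut into 10 equal parts from the 5′ to the 3′ end, it ranged from 6.08 to 10.7 in replicate 1 and from 6.30 to 11.4 in replicate 2, with the last part the lowest and the highest parts lying between 208 and 267 kb from the start. The bins that missed 2-fold in at least 1 library formed 4 narrow dips, at 5, 168, 269 and 272 kb from the start, none over 2 kb. The dip at 168 kb had 1.43 in replicate 1 and 1.48 in replicate 2. Bins were joined into a domain where gaps were at most 5 bins under the call, and the domain at SKAP1 was 412 kb long, from 46206001 to 46618000 on chromosome 17. It reached 5 kb beyond the 3′ end of the 297 kb span and 110 kb beyond its start. The RefSeq table of GRCh38.p14 gives SKAP1 a length of 311.62 kb, so an end of the span may differ from that annotation.

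The sides of SKAP1 differed. The 100 kb upstream of its start, on the side of the homeobox genes HOXB1 and HOXB2, had 6.74 in replicate 1 and 7.11 in replicate 2. The 100 kb downstream, on the side of the sorting nexin gene SNX11 and the heterochromatin protein gene CBX1, had 0.523 and 0.582. Past the first 10 kb, mean levels of the 10 kb steps downstream lay between 0.145 and 0.373 up to 90 kb out. The edge of the domain thus fell near the 3′ end of the SKAP1 span. The last 5 kb inside the domain had 2.93 and 3.03, and the first 5 kb outside had 0.464 and 0.618. A step at a domain edge is in part set by the rule that draws it.

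HSD17B2 was the gene with no gap. All of its 63 bins were at least 2-fold in both libraries, and 56 were at least 5-fold. The lowest bin had 3.14 in replicate 1 and 2.96 in replicate 2, and the highest had 12.4 and 14.4. Its coefficient of variation across bins, 29.9% and 29.8%, was the lowest of the 6 genes beside that of SKAP1 at 31.7% and 31.6%. The domain was 113 kb long, from 82046001 to 82159000 on chromosome 16, and reached 23 kb beyond the start and 27 kb beyond the end. Between 40 and 70 kb past the end, toward the MPHOSPH6 gene, mean levels per 10 kb were 0.119 to 0.202, and from 70 kb on they stood at 6.89 to 9.12. HSD17B2 sat on a block of its own, with another high block beyond a poor stretch.

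RNF43 was marked more strongly on its 5′ side, though not at the start itself. The first 32 of its 64 kb had 10.4 in replicate 1 and 11.04 in replicate 2, against 5.82 and 6.31 in the last 32 kb. Of 10 equal parts, those between 13 and 32 kb from the start were the highest, at 10.7 to 11.6 in replicate 1 and 11.4 to 12.7 in replicate 2. The last part, at the 3′ end, was the lowest, with 3.39 and 3.90. In both libraries 62 of its bins were at least 2-fold and 46 were at least 5-fold, and the 2 bins that missed 2-fold lay 58 to 60 kb from the start. Signal ended at the 3′ end of the gene, with 0.136 and 0.330 over the 5 kb outside against 3.55 and 4.29 over the 5 kb inside. On that side the nearest coding gene is SUPT4H1, a subunit of the transcription elongation factor DSIF. The 10 kb downstream of RNF43 had 0.256, and levels rose again farther out to 8.95 at 90 to 100 kb.

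RNF43 and HSF5 lie next to each other on the same strand, with the 3′ end of HSF5 toward the start of RNF43, and a 98 kb domain crossed the space between them. It ran from 56431001 to 56529000 on chromosome 17 and took in all of RNF43 and the last 32 kb of HSF5. HSF5 alone held a second domain of 23 kb, which began 4 kb inside its start. Between both, 27 to 37 kb from the start of HSF5, a run of 10 bins under the call had 1.35 in replicate 1 and 1.65 in replicate 2. The level stayed low to about 41 kb from the start: of 10 equal parts, that from 34 to 41 kb had 1.86 and 1.82. The next part, from 41 to 48 kb, had 7.06 and 7.32, and that from 21 to 28 kb had 7.10 and 7.41. In all, 54 of the 69 bins of HSF5 were at least 2-fold and 43 at least 5-fold. Each gene lies in the flank of the other, so the flank values of both are shared: the 100 kb downstream of HSF5, which hold RNF43, had 5.66 and 6.02, while the 100 kb upstream, toward the phosphatase gene MTMR4, had 0.968 and 1.02.

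SORCS3 showed a slope along its 625 kb. Of 10 equal parts, the first had 6.26 in replicate 1 and 6.37 in replicate 2, the fifth had 5.31 and 5.76, the eighth had 2.80 and 3.20, and the last had 0.894 and 0.940. The parts did not fall without exception, as the second stood below the third in both libraries. Of its bins 438 (70.1%) were at least 2-fold and 221 were at least 5-fold. The called bins broke into 6 domains of 1 to 186 kb inside or across the gene, and beyond 511 kb from the start 1 bin only was called. The stretch from 554 kb to the 3′ end, 71 kb long, had 0.940 and 0.989. The 100 kb upstream had 6.94 and 7.18, above the mean over the gene, and the 100 kb downstream had 0.609 and 0.583.

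Inside SORCS3, 8 pockets of at least 2 neighbouring bins under 1-fold in both libraries summed to 35 kb. They lay at the start, at 295 and 332 kb from it, and otherwise at 572 kb or farther. The pocket at 295 kb from the start had 0.375 in replicate 1 and 0.4995 in replicate 2 over 4 kb. The pocket at 332 kb had 0.473 and 0.496 over 5 kb. SKAP1, RNF43 and HSD17B2 had 0 such pockets.

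DMBT1 was high at its start and low or unread in its middle. The first of 10 equal parts had 8.45 in replicate 1 and 8.43 in replicate 2, and its highest bin had 12.5 and 13.0. In the middle, from 41 to 56 kb from the start, 15 bins in a row held no read in either library, and in all 18 bins were unlisted in replicate 1 and 19 in replicate 2. DMBT1 encodes many near-identical scavenger receptor cysteine-rich repeats, and how multiply mapping reads were handled is not given in the sources used here; their part in the unread bins was not tested. With unlisted bins left out the mean level was 4.98 and 5.37, against 3.92 and 4.16 with them at 0. At least 2-fold were 59 of 84 bins (70.2%), and 29 were at least 5-fold.

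With unlisted bins at 0, DMBT1 did not stand above the mean of both flanks, 5.99 in replicate 1 and 6.48 in replicate 2. Levels and differences in this paragraph count unlisted bins at 0 unless stated. The 100 kb downstream, toward SPADH and C10orf120, had 8.09 in replicate 1 and 8.72 in replicate 2, above the gene in both. The 100 kb upstream, on the side of the secreted protease gene HTRA1, had 3.90 and 4.25, close to the gene at 3.92 and 4.16. With its unlisted bins left out, the gene had 4.98 and 5.37, above the upstream side and below the downstream side. The 3′ part of DMBT1 belonged to a 292 kb domain, from 124376001 to 124668000 on chromosome 10, that ran 264 kb beyond the end of the gene and had 6.34 ± 0.297 (SD, n = 2). A domain of 47 kb covered the start of the gene and began 7 kb before it. The gene minus both flanks was -2.08 and -2.32 at DMBT1, 0.360 and 0.548 at SORCS3, 2.34 and 2.37 at HSF5, 4.28 and 4.71 at RNF43, 5.08 and 5.40 at SKAP1, and 5.26 and 5.51 at HSD17B2.

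**Figure D3:**
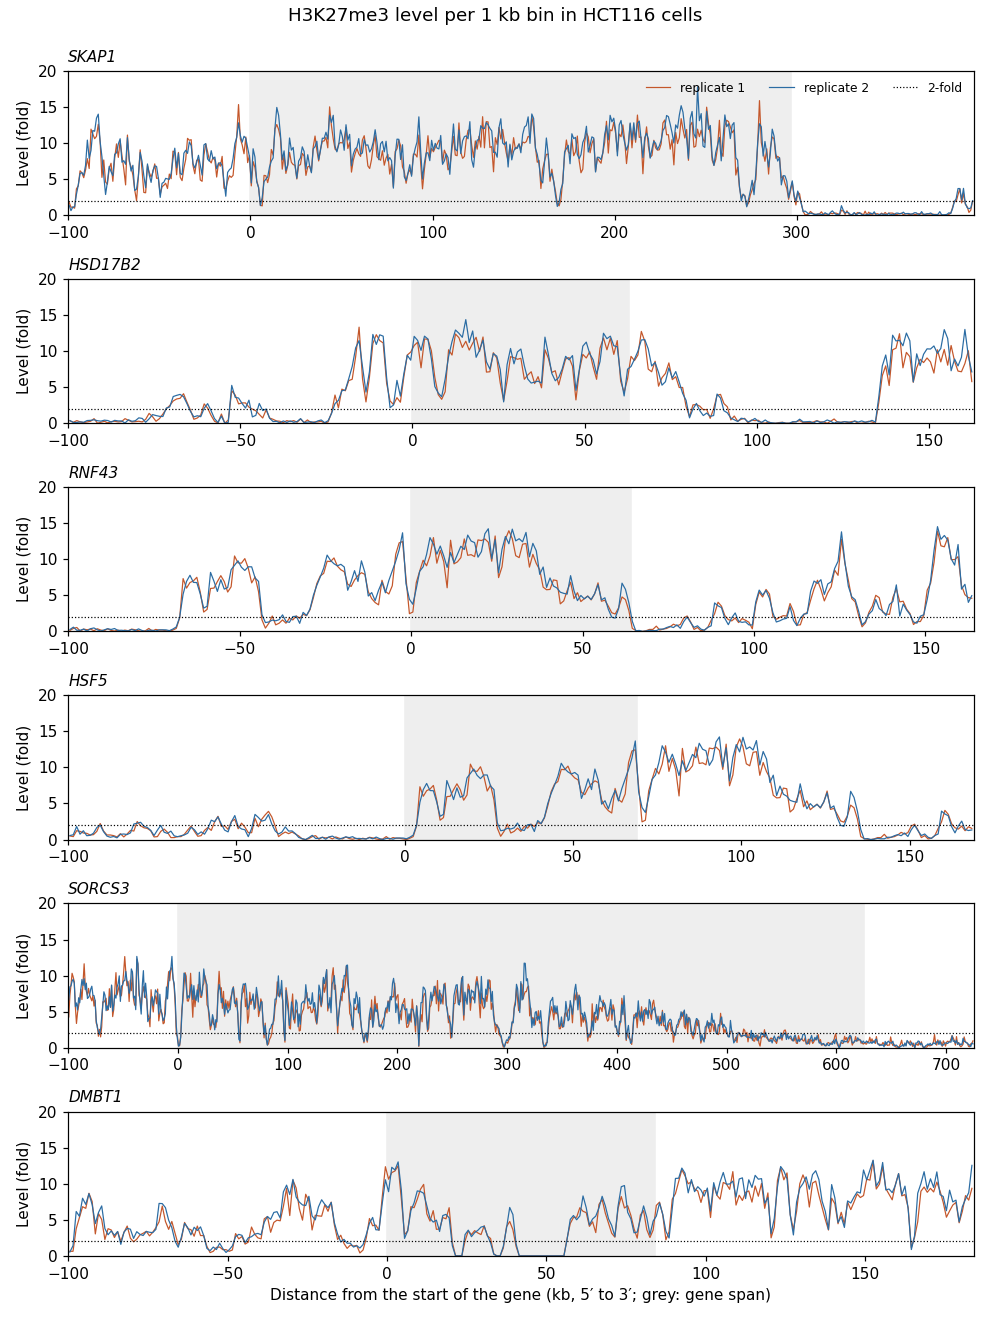
H3K27me3 level (y axis, fold over the library mean) of every 1 kb bin across the 6 genes (grey) and 100 kb on either side, oriented 5′ to 3′, against the distance from the start of the gene (x axis, kb), in replicate 1 and replicate 2; the dotted line is 2-fold. SKAP1 and HSD17B2 stay high across the gene, RNF43 falls toward its 3′ end at 3.39 and 3.90, SORCS3 slopes to 0.894 and 0.940, and DMBT1 has 15 unread bins in its middle.

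The starts of the genes differed more than their means did. Over the 5 bins centred on the start, HSF5 had 0.173 in replicate 1 and 0.293 in replicate 2, against 5.90 and 6.14 over the rest of the gene. SORCS3 had 1.10 and 1.25 at its start, against 4.15 and 4.45 over the rest. These are the genes with 35 CG dinucleotides in the promoters printed above. The low stretch at SORCS3 was narrow: its start bin had 0.273 and 0.213, while the bin 6 kb upstream had 11.04 and 12.7 and the bin 5 kb downstream 8.64 and 10.3. At HSF5 the low stretch went on upstream for 20 kb at 0.409 or less in both libraries, so its start lies at the outer edge of the marked region.

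RNF43, with 5 CG dinucleotides at its outermost listed start, had a shallower dip. Its 5 start bins averaged 5.53 in replicate 1 and 5.82 in replicate 2, against 8.22 and 8.81 over the rest. The start bin itself had 2.68 and 3.76, between 12.5 and 13.7 in the bin 3 kb upstream and 9.86 and 8.95 in the bin 3 kb downstream. SKAP1, by the start of the span used here, had 6.72 and 7.82 over its start bins, against 8.74 and 9.27 over the rest. Its lowest bins near this start lay 5 and 6 kb inside the span. They had 1.36 and 1.27 in replicate 1 and 1.31 and 2.45 in replicate 2. The remaining pair showed no dip over the 5 start bins. HSD17B2 had 9.80 and 10.4, against 8.32 and 8.77, and DMBT1, with 3 CG dinucleotides, had 10.9 and 10.2, against 3.64 and 3.90. Both had low bins farther out, such as 3.09 and 2.16 at 7 kb upstream of HSD17B2. At 5 kb inside DMBT1 the bin had 2.95 and 2.42. The direction over the 5 start bins was the same in both libraries for each of the 6 genes. The dips of RNF43 and SORCS3 were narrow: averaged over 11 bins, the start was above the rest by 0.265 and 0.0614 at RNF43 and by 0.421 and 0.437 at SORCS3, while SKAP1 and HSF5 kept a lower start. In an exact test 2 libraries cannot reach a p under 0.05, so none was run, and whether CpG content goes with the level at the start was not tested with 4 sequences.

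**Figure D4:**
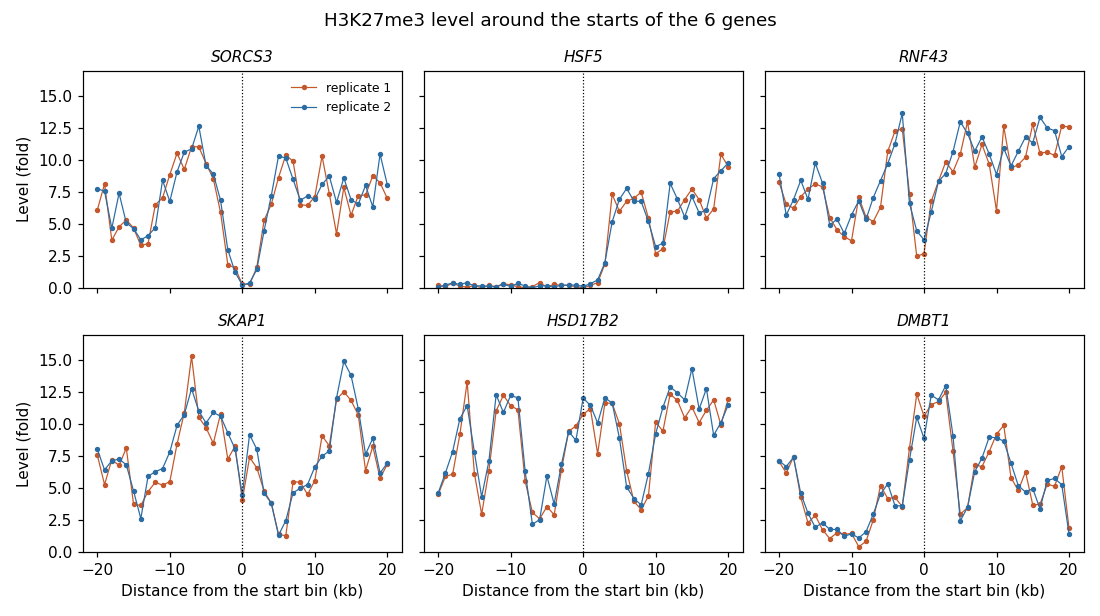
H3K27me3 level (y axis, fold over the library mean) per 1 kb bin within 20 kb of the start bin of each gene (x axis, kb, negative upstream; dotted line, start), in replicate 1 and replicate 2. SORCS3 dips to 0.273 and 0.213 between high sides, HSF5 is low upstream of its start, and DMBT1 and HSD17B2 are high at theirs.

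The libraries gave similar profiles within each gene. Pearson's r of the levels across the bins of a gene lay between 0.898 (SKAP1) and 0.968 (DMBT1); bins of a gene are neighbours and share their library, so these are descriptions. In single bins the libraries could still differ: the highest bin of SKAP1 had 15.9 in replicate 1 and another bin 17.8 in replicate 2. The likeness of these genes to others across conditions could not be computed, because the series held 1 group.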

How the data were processed

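H3K27me3 ChIP-seq reads of 2 HCT116 libraries were aligned by the authors with BWA 0.7.12 to hg19 (GRCh37), per the submitters' processing notes. The authors deposited raw counts of reads in 1 kb bins, per the deposited column description; bins without reads are left out of the files. How reads were counted, and whether duplicates or poorly mapped reads were removed, is not given in the sources used here. Of the listed autosomal bins with 1 to 10 reads, 67.8% and 67.7% held an even count.

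From these counts, levels, calls (at least 2-fold with a Poisson adjusted p under 0.05 in both libraries), domains (gaps of up to 5 bins), flanks of 100 kb and local 10th percentiles were computed with scipy 1.17.1, pandas 2.3.3 and numpy 2.4.6 under Python 3.11.15. The call was tested on simulated data. At this depth the fold minimum sets nearly all calls. The dispersion is the mean squared deviation of the split of reads between libraries, over bins with at least 10 reads, relative to single reads. There was no test between groups.

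The members were chosen with earlier results of these data known. Named are all 6 genes and the 2 nearest protein-coding genes on each side in the RefSeq table of GRCh38.p14. It was used for names, order, strand and gene length only. The strands of SKAP1 and HSD17B2 come from general knowledge. No gene but the 6 has a level here. Alternatives were other scalings, bins, thresholds, gaps and widths, and each replicate left out. Scaling to all bins, and omission of DMBT1 or HSF5, were added after the data were seen.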

Additional observations from a re-analysis of the deposited data

How the results depend on the processing

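Of 40 alternatives, 25 left a summary of the 6 genes the same, 14 moved it and 1 reversed it; a count or length was taken as the same within 1.5 times and a level within 1 SD of the libraries. The 966 called bins stayed between 877 (3-fold minimum) and 1112 (scaled to the autosomal median), and were 980 to 994 with a replicate left out. The domains at the 6 genes, 1573 kb in all, stayed between 1159 kb (no gap joined) and 1896 kb (gap of 10 bins), and were 1595 to 1615 kb with a replicate left out. The median level over the genes, 7.08, became 18.2 scaled to the autosomal median, 8.36 scaled to all bins, 5.57 when copy-scaled and 8.40 without DMBT1, and was 6.88 to 7.28 with a replicate left out. The median copy-scaled level of 5.57 became 5.75 and 5.88 with local windows of 2 and 10 Mb each side, 4.68 with listed 1 kb bins, 5.49 with the 25th percentile and 5.90 without DMBT1. The SD of this median over the 2 libraries was only 0.00468, so even small changes were labelled as moved. The median of gene minus flanks, 3.42, became 2.62 with flanks of 50 kb, 8.79 scaled to the autosomal median and 4.50 without HSF5. The median of start minus rest, -2.29, became -4.40 with 1 bin, -5.86 scaled to the autosomal median and 0.296 with 11 bins at the start, where RNF43 and SORCS3 changed sign; the genes differ in sign under each width. Scaling changes every level by a fixed factor; the cause of the other moves was not tested. No paired analysis was possible because all libraries belong to 1 group. No input was used, so neither copy number nor mappability is corrected. A single bin at 2-fold would carry a counting error of 15.1% and 11.54% of its level if reads were independent. The split of reads between the libraries had 2.51 times the variance of single reads, so these errors are likely too small.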
